A study of Mus musculus with 2 samples.

Results

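The 10 genes described here mark epithelial or mesenchymal state, and they were taken by name from the 26127 mRNA probes quantitated in mouse embryonic stem (ES) cells, each name matching 1 probe. Of these, 7 are epithelial: the simple keratins Krt8, Krt18 and Krt19, the adhesion molecule Epcam and the tight junction claudins Cldn4, Cldn6 and Cldn7. The other 3 are mesenchymal: the intermediate filament gene Vim, the N-cadherin gene Cdh2 and the repressor gene Zeb1. RNA was sequenced from 2 cell lines of strain 129S1/SvImJ, both grown in foetal calf serum with leukaemia inhibitory factor. The WT cells were unmodified (H3f3a+/+; H3f3b+/+). The G34R cells (H3f3a+/G34R; H3f3b+/+) carried a single mutant copy of H3f3a, 1 of the genes for histone H3.3, as a minigene that was placed under the endogenous H3f3a promoter by targeting and Cre excision. Each line gave 1 library. No value therefore has a replicate and no test was run between the lines, and effects of the mutation and of clonal or culture history cannot be told apart. Which G34R clone was sequenced is not given in the sources used here.

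ES cells grow as compact colonies that are held together by E-cadherin (Cdh1), and they are epithelial in this sense. In an epithelial to mesenchymal transition, as at gastrulation, cells exchange E-cadherin for N-cadherin, lose tight junctions and keratin filaments, and build vimentin filaments, while repressors such as Zeb1 and the Snail proteins bind E-box sequences of epithelial promoters. Keratins work as obligate pairs of a type II chain such as keratin 8 with a type I chain such as keratin 18 or 19, claudins seal tight junctions between neighbouring cells, and Epcam is a surface glycoprotein of embryonic and adult epithelia.

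Values are RPKM as deposited, that is, reads divided by transcript length and by the size of the library, and a difference is the log2 of the G34R over the WT value, where anything lower than 0.01 RPKM was raised to 0.01. From the steps between the lowest RPKM values of short single-exon genes, the depth was estimated as 88.3 M reads for WT and 72.7 M reads for G34R. Reads behind each gene were estimated from this depth, and the 95% intervals given below (Clopper-Pearson, on the share of reads that came from G34R cells) cover counting error only. H3f3a itself had 8.17 RPKM in WT and 4.89 RPKM in G34R cells, a value that does not separate the mutant from the WT allele. The 8 ES cell markers that were set (Pou5f1, Sox2, Nanog, Zfp42, Esrrb, Klf4, Fgf4 and Utf1) were each at 16.4 RPKM or more in both libraries, but they were not alike between them. Zfp42 had 180.3 and 16.4 RPKM (log2 ratio -3.46) and Nanog 127.07 and 52.24 RPKM (-1.28) in WT and G34R cells, while Klf4 (25.14 and 43.71 RPKM) and Utf1 (61.89 and 108.56 RPKM) were higher in G34R cells and the other 4 had log2 ratios between -0.04 and 0.38. The part of these differences in the values of the 10 genes was not tested.

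The genes of the epithelial group did not move as 1 block. Epcam, Cldn4, Cldn7 and Krt19 were between 1.5 and 1.76 times higher in G34R cells, Cldn6 was 1.10 times higher, and Krt8 and Krt18 were 1.92 and 1.71 times lower. In the mesenchymal group, Vim was 2.30 times lower in G34R cells, while Zeb1 and Cdh2 were weakly expressed in both lines. Vim was the only 1 of the 10 to differ by more than 2-fold.

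**Figure D1:**
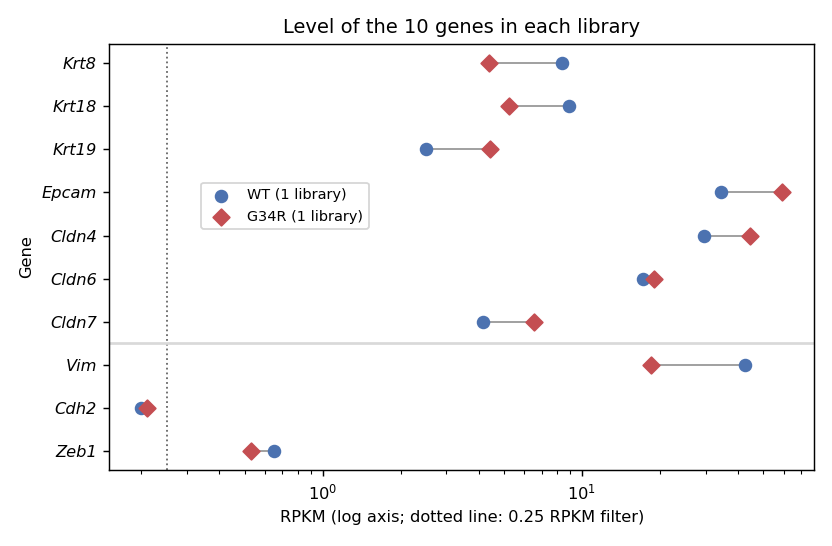
RPKM (log axis) of the 10 genes in the WT library (circles) and the G34R library (diamonds), with a dotted line at the filter of 0.25 RPKM. Epcam, Cldn4, Cldn7 and Krt19 lie to the right in G34R cells, Krt8, Krt18 and Vim lie to the left, and Cdh2 is under the filter in both.

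Of the 10 genes, 9 reached 0.25 RPKM in at least 1 library and Cdh2 did not. Among the 9, none was more than 2-fold higher in G34R cells, where 5.79% of the 13366 probes past the same filter were. More than 2-fold lower was 1 of the 9, where 9.64% of probes were. The median log2 ratio was 0.58 over the 7 epithelial genes and -0.29 over the 3 mesenchymal genes (-0.75 over the 2 past the filter), beside -0.07 over all probes past the filter. The quartiles of those probes were -0.41 and 0.27, and of the 9 genes Cldn6 and Zeb1 lay between them.

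**Figure D2:**
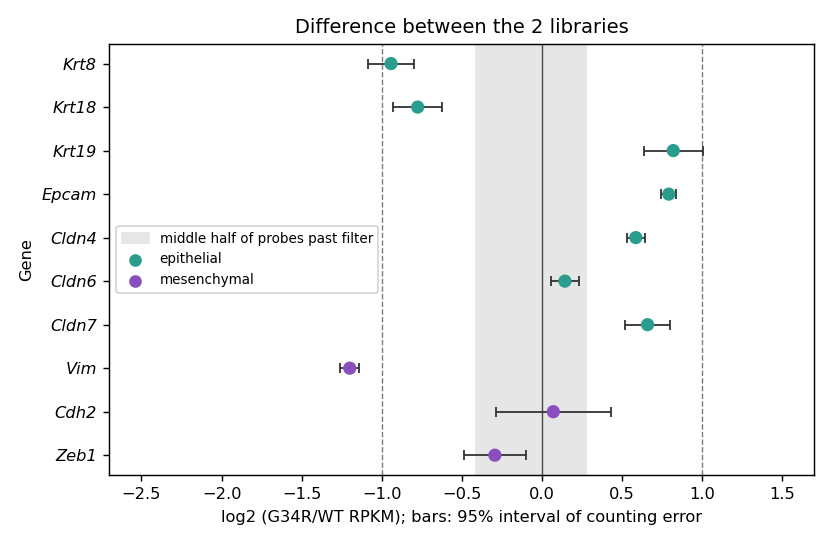
log2 (G34R/WT RPKM) of the 10 genes, with 95% intervals of counting error as bars, the range between the quartiles of probes past the filter in grey and dashed lines at 2-fold. Vim lies beyond 2-fold, Krt8 and Krt18 lie on the lower side and Krt19, Epcam, Cldn4 and Cldn7 on the higher side of the grey band, and only the interval of Cdh2 spans 0.

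Krt8 had 8.40 RPKM in WT and 4.37 RPKM in G34R cells, from about 1339 and 573 reads. Its log2 ratio was -0.94 (interval -1.09 to -0.80). Krt18, which encodes the partner chain of keratin 8, had 8.94 and 5.22 RPKM, and its log2 ratio was -0.78 (-0.93 to -0.63). Both genes of the pair were lower in G34R cells, and their intervals overlap.

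The ratio between these partners stayed close to even. Within a library, where no scaling between libraries enters, the ratio of Krt8 to Krt18 RPKM was 0.94 in WT and 0.837 in G34R cells. The genes lie 23874 bp apart on chromosome 15 of mm9, Krt8 (101827142 to 101834773) on the minus strand and Krt18 (101858647 to 101862457) on the plus strand, so that their 5′ ends face each other. The nearest probe past the filter beyond Krt18, the translation factor gene Eif4b, had 136.71 and 130.23 RPKM, a log2 ratio of -0.07. The median over the 519 probes past the filter on chromosome 15 was -0.02.

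The level of Krt8 carries a further limit. Of the 1364 windows of 50 bases (the read length) in its annotated exons, 753 (55.2%) occur a further time in mm9 without a mismatch, at chr7:24142113-24143830, inside the span of Nlrp4e, whose own probe had 0.04 RPKM in WT and 0 in G34R cells. Reads from these windows have more than 1 best position, and the authors kept primary alignments, so the Krt8 values depend on how such reads were placed. In Krt18, 5 of 1057 windows (0.473%) were repeated, and in Krt19, Epcam, Cldn4, Cldn6, Cldn7 and Vim none was.

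Krt19, the smallest type I keratin and an alternative partner of keratin 8, differed in the other direction. The gene lies at chr11:100002124-100009979 on the minus strand. It had 2.5 RPKM in WT and 4.41 RPKM in G34R cells, from about 409 and 595 reads. Its log2 ratio was 0.82 (0.64 to 1.01), and 8.10% of probes past the filter had a higher one. The ratio of Krt19 to Krt18 RPKM was 0.28 in WT and 0.845 in G34R cells, a log2 difference of 1.60, which was the largest among the 6 within-library ratios set. Krt8 and Krt18 together held 87.4% of the RPKM of the 3 simple keratins in WT and 68.5% in G34R cells. Summed over the 3, the level was 19.84 and 14.00 RPKM.

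Epcam (chr17:88035319-88050446, plus strand) was the highest of the 7 epithelial genes in both libraries. It had 34.31 RPKM in WT and 59.37 RPKM in G34R cells, from about 6180 and 8805 reads, and its rank among all probes was 822 and 400. The log2 ratio was 0.79 (0.74 to 0.84), and 8.61% of probes past the filter had a higher one. On chromosome 17 the neighbouring calmodulin gene Calm2 had a log2 ratio of 0.12.

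**Figure D3:**
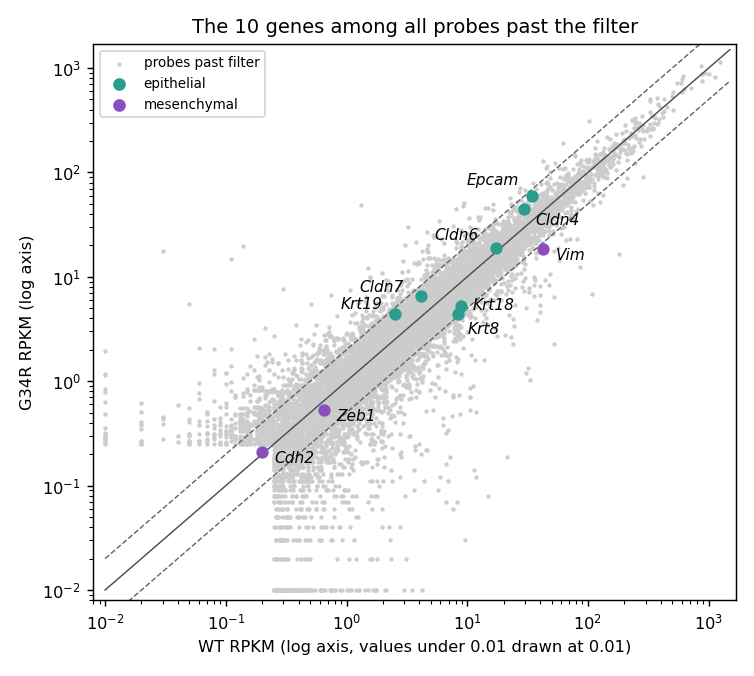
RPKM in G34R cells against RPKM in WT cells (both log axes) for every probe past the filter (grey) and for the 10 genes, with the line of equality and dashed lines at 2-fold. Vim is the single coloured point outside the dashed lines, and Cdh2 is drawn although it is under the filter.

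The 3 claudins were each higher in G34R cells, by unlike amounts. Cldn4, which is a single exon (chr5:135420996-135422804, minus strand), had 29.66 and 44.49 RPKM in WT and G34R cells, which is 1.5-fold, and a log2 ratio of 0.58 (0.53 to 0.64). Cldn7 (chr11:69778281-69781387, plus strand) had 4.15 and 6.55 RPKM and a log2 ratio of 0.66 (0.52 to 0.80). Cldn6 (chr17:23816332-23819413, plus strand), which is typical of embryonic epithelia, had 17.22 and 19.01 RPKM and a log2 ratio of 0.14 (0.06 to 0.23).

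The interval of Cldn6 does not overlap those of Cldn4 or Cldn7. The ratio of Cldn4 to Cldn6 RPKM was 1.72 in WT and 2.34 in G34R cells, and that of Cldn7 to Cldn6 was 0.241 and 0.345. Cldn4 remained the highest and Cldn7 the lowest of the 3 in both libraries, and their summed level was 51.03 RPKM in WT and 70.05 RPKM in G34R cells. Neighbouring claudin genes did not share 1 direction. Cldn3, 39280 bp from Cldn4 on chromosome 5, had 5.53 and 3.43 RPKM, a log2 ratio of -0.69 (-0.89 to -0.49). Cldn9, 139 bp from Cldn6 on chromosome 17, had 0.63 and 0.97 RPKM, a log2 ratio of 0.62 (0.18 to 1.06).

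Vim (chr2:13495554-13504453, plus strand), which encodes the filament protein of mesenchymal cells and is also expressed in many cultured cells, had 42.5 RPKM in WT and 18.5 RPKM in G34R cells, from about 8763 and 3140 reads. In WT cells it was the highest of the 10 genes, and in G34R cells Epcam, Cldn4 and Cldn6 were higher. Its rank among all probes was 640 and 1648. The log2 ratio was -1.20 (-1.26 to -1.14), and 7.82% of probes past the filter had a lower one. The nearest probes past the filter were Trdmt1, with a log2 ratio of 0.19, and St8sia6, with 0.39 and 0.05 RPKM (-2.96). The median over the 1063 probes past the filter on chromosome 2 was -0.15. The part of the locus in the Vim value was not tested. The ratio of Vim to Krt8 RPKM was 5.06 in WT and 4.23 in G34R cells. Among the filament genes of the 10, Vim, Krt8 and Krt18 were lower in the G34R library and Krt19 was higher.

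Cdh2 had 0.20 RPKM in WT and 0.21 RPKM in G34R cells, from about 142 and 123 reads. Its log2 ratio was 0.07 (-0.29 to 0.43), so that at this depth no difference was detectable, and the interval does not show that the levels were alike. Of its 7233 exon windows, 1290 (17.8%) occur a further time at chr4:86749334-86750943, inside the span of Slc24a2, whose probe was listed at 0 in both libraries. Cdh1, which encodes the E-cadherin that N-cadherin replaces in a transition, had 46.47 and 70.97 RPKM, 232.3 times the level of Cdh2 in WT cells and 338 times in G34R cells. Cdh1 lies on chromosome 8, where the median log2 ratio over 729 probes past the filter was 0.35. Its own log2 ratio was 0.61 (0.58 to 0.64), and that of Cdh3, the P-cadherin gene 46443 bp away, was 0.02 (-0.06 to 0.11). The part of the chromosome in the Cdh1 value was not tested.

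Zeb1 had 0.65 RPKM in WT and 0.53 RPKM in G34R cells, from about 557 and 374 reads, a log2 ratio of -0.29 (-0.49 to -0.10). The other Zeb and Snail genes listed were also low: Snai1 had 0.27 and 0.17 RPKM, Zeb2 0.04 and 0.02 RPKM, and Snai2 0.08 and 0.12 RPKM. Twist1, also listed as mesenchymal, was above Zeb1 in both libraries. It had 0.96 and 1.29 RPKM, a log2 ratio of 0.43 (0.09 to 0.77). Snai1, Zeb2, Snai2 and Twist1 were named after their values were seen. Summed over Vim, Cdh2 and Zeb1 the level was 43.35 RPKM in WT and 19.24 RPKM in G34R cells, and nearly all of it was Vim.

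Promoter sequences are shown because the Zeb and Snail proteins bind the E-box CACCTG, so that the letters can be set beside the levels of these repressors and of the epithelial genes. RefSeq promoter windows (GRCm38.p6, 250 bases before to 50 after each annotated start) were found for 7 of the 10 genes, and Krt19, Cdh2 and Zeb1 had no entry. The letters CACCTG, searched on both strands, occurred in at least 1 window of each of the 6 epithelial genes with an entry and not in the window of Vim. Among all 32851 windows of this length, 20.2% held them. Cldn7 has 2 windows and only 1 held the letters. A match says that the letters are present and not that a protein binds there, and the windows were not compared by base composition.

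Shown 5′ to 3′, with each E-box in capitals, are the windows of the keratin pair, which was lower in G34R cells, and of Epcam and Cldn4, which were higher. They lie at chr15:102004293-102004592 (minus strand) for Krt8, chr15:102027966-102028265 (plus strand) for Krt18, chr17:87635729-87636028 (plus strand) for Epcam and chr5:134946885-134947184 (minus strand) for Cldn4. Counted from 0 at the annotated start, the E-box begins at -111 in Krt8 and -214 in Krt18, at -187 and -19 in Epcam and at -14 and 11 in Cldn4.
Krt8: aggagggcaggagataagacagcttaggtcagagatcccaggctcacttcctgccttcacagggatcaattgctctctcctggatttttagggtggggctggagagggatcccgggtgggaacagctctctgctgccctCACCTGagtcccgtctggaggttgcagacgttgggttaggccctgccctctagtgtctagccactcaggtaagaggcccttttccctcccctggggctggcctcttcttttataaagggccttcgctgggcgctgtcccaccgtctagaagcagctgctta
Krt18: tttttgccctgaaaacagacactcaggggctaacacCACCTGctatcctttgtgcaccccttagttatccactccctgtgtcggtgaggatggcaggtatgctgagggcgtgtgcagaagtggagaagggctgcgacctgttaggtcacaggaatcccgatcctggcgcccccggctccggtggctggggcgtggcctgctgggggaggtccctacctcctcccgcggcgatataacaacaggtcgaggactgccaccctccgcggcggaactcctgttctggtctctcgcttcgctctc
Epcam: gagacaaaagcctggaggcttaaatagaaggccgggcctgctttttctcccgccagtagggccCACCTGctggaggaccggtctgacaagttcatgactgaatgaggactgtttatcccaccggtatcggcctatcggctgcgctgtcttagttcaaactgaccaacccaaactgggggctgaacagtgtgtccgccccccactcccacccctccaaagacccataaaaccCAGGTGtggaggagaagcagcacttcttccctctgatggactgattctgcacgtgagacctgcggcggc
Cldn4: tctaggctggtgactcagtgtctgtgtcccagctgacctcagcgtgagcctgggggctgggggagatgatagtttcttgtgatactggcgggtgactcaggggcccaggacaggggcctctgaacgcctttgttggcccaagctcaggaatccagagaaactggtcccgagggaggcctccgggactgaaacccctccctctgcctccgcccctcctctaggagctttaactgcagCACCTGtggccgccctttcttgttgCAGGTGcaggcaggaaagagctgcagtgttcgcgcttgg

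Among these 4 windows, those of the genes that were lower and those of the genes that were higher held the same 6 letters. No binding data were analysed here.

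A list of 42 other epithelial genes was taken for comparison, of which 38 passed the filter. This list and those that follow were chosen with earlier results of these data known. Their shares beside all probes are therefore descriptive and are not a test. More than 2-fold higher in G34R cells were 4 (10.5%, beside 5.79% of all probes) and more than 2-fold lower was 1 (2.63%, beside 9.64%). The median log2 ratio was 0.15, and 24 of the 38 genes were above 0, where 44.5% of all probes past the filter were. The higher genes included the desmosomal plaque gene Pkp3 (1.27 to 3.34 RPKM), the desmosome-associated gene Perp (6.47 to 16.27 RPKM) and the cornified envelope gene Evpl (0.54 to 1.30 RPKM). The 1 lower gene was the tight junction gene Ocln (3.09 to 1.52 RPKM, log2 ratio -1.02), which came within 2-fold under each of the 3 rescalings of the libraries.

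Among the most abundant of these genes, the protease inhibitor gene Spint2 was close to even, with 34.86 and 37.18 RPKM. With Cdh1, the list held 286.57 RPKM in WT and 335.52 RPKM in G34R cells.

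Of 34 other mesenchymal genes, 19 passed the filter. None was more than 2-fold higher, and 5 (26.3%, beside 9.64% of all probes) were more than 2-fold lower in G34R cells. They included Tagln, an actin-binding protein of smooth muscle (1.93 to 0.51 RPKM, log2 ratio -1.92), Tgfbi, a secreted matrix protein (2.08 to 0.62 RPKM, -1.75), the smooth muscle actin gene Acta2 (0.74 to 0.03 RPKM, -4.62) and the receptor gene Pdgfrb (0.47 to 0.06 RPKM, -2.97). The last pair was under the 1 RPKM limit for named genes and was added after the values were seen. In G34R cells Acta2 rested on about 4 reads and had an interval of -6.48 to -3.18.

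The most abundant genes of this list differed the other way within 2-fold. The matrix genes Fn1 (40.85 to 62.59 RPKM) and Sparc (31.72 to 53.36 RPKM) had log2 ratios of 0.62 and 0.75, and the fibronectin receptor gene Itga5 (8.03 to 9.75 RPKM) had 0.28. The median of the 19 was -0.67, while their summed level with the 15 genes under the filter was higher in G34R cells, at 142.13 against 100.71 RPKM.

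**Figure D4:**
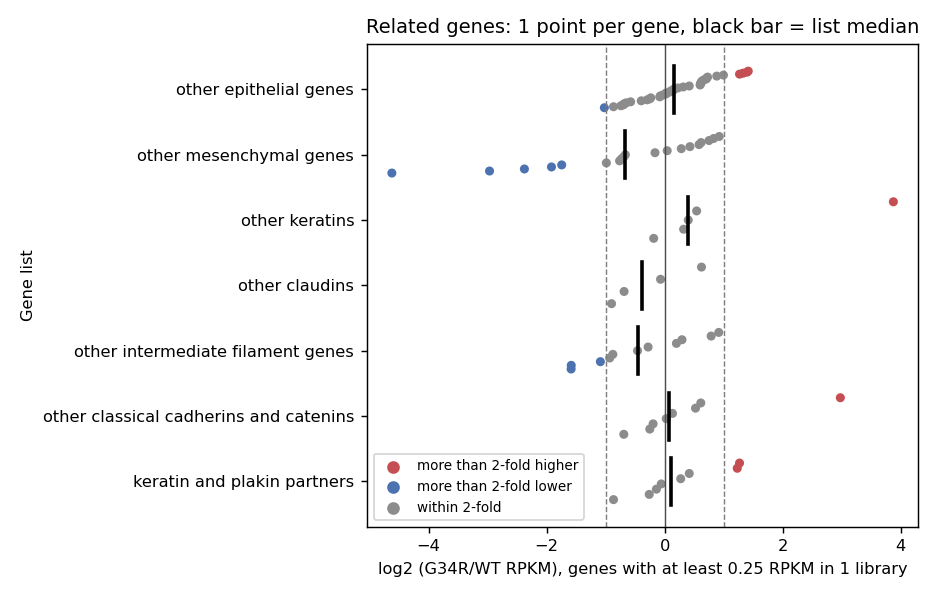
log2 (G34R/WT RPKM) of related genes with at least 0.25 RPKM in 1 library, 1 point per gene, by list, with black bars at the list medians and dashed lines at 2-fold. Genes more than 2-fold lower (blue) stand out among the mesenchymal and the other intermediate filament genes, and some genes are in more than 1 list.

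Of 21 other keratins listed, 20 were measured and 5 passed the filter. The highest were Krt42 (9.19 to 8.07 RPKM) and Krt17 (6.12 to 7.64 RPKM), within 2-fold and at levels like those of Krt8 and Krt18. Krt16 had 0.22 and 0.32 RPKM, with a log2 ratio of 0.54 (-0.19 to 1.25). The single keratin past 2-fold (20% of the 5, beside 5.79% of all probes) was Krt13, 19244 bp from Krt19 on chromosome 11, with 0.03 RPKM in WT and 0.44 RPKM in G34R cells, from about 5 and 58 reads and with a log2 ratio of 3.87 (2.51 to 5.49). It passed the filter only through the G34R library, where it was high, and it was named after its values were seen.

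Of 17 other claudins, 4 passed the filter, all within 2-fold. Beside Cldn3 and Cldn9, Cldn12 had 5.01 and 4.77 RPKM, a log2 ratio of -0.07. Among 11 other cadherin and catenin genes, 8 passed the filter, and the cytoplasmic partners of the cadherins were abundant. The β-catenin gene Ctnnb1 had 89.69 and 78.21 RPKM (log2 ratio -0.20) and the α-catenin gene Ctnna1 had 74.91 and 107.52 RPKM (0.52). The single gene past 2-fold (12.5% of the 8, beside 5.79% of all probes) was Cdh4, the R-cadherin gene, with 0.15 RPKM in WT and 1.18 RPKM in G34R cells, with a log2 ratio of 2.98 (2.66 to 3.29). It too passed the filter only through the G34R library.

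Of 9 keratin-linked genes, 8 were measured and all passed the filter, with 2 of the 8 (25%, beside 5.79% of all probes) more than 2-fold higher in G34R cells. They were Plec, the plakin that ties intermediate filaments to junctions and to other filaments (9.11 to 21.35 RPKM, log2 ratio 1.23, 1.20 to 1.26), and Evpl. The nuclear speckle gene Pnn (11.89 to 9.91 RPKM) and Krtcap2 (9.70 to 9.31 RPKM) were within 2-fold.

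Markers of other cell types were set beside these genes, since some of them are shared. In bulk RNA, fewer cells of a type and less RNA per cell cannot be told apart. Of 9 primitive endoderm markers, 8 were higher in G34R cells, where 44.5% of all probes past the filter were. Their summed level was 20.90 RPKM in WT and 33.41 RPKM in G34R cells. Most of it was the basement membrane genes Lama1 (11.56 to 20.26 RPKM) and Col4a1, while the defining factors were low: Gata6 had 0.30 and 1.09 RPKM, Gata4 0.50 and 1.18 RPKM, and Sox17 0.18 and 0.56 RPKM. Sox17 passed the filter only through the G34R library. Foxa2, the 1 marker that was lower, had 0.13 and 0.07 RPKM and was under the filter. Primitive endoderm also makes Sparc and keratins 8 and 18, and its part in the values above was not tested.

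The other marker lists were low. Over all probes past the filter, 44.5% were higher and 55% were lower in G34R cells. The 8 fibroblast markers summed to 1.95 RPKM in WT and 1.0 RPKM in G34R cells. Of these, 5 were lower in G34R cells, and Postn, Lum and Dcn were listed at 0 in both libraries. Only Thy1 and Pdgfrb passed the filter, and the interval of Col1a1 (-0.48 to 0.34) spanned 0. The markers Col1a1, Col1a2, Col3a1, Thy1 and Pdgfrb are also in the mesenchymal list. The 7 measured of 8 trophectoderm markers summed to 4.11 and 3.64 RPKM, 5 of them higher in G34R cells. Only Ascl2, Eomes and Hand1 of the 7 passed the filter, Hand1 only through the G34R library. Of these markers Ascl2 (3.18 and 1.16 RPKM, log2 ratio -1.45) and Eomes (0.43 and 1.88 RPKM, 2.13) passed the filter and differed by more than 2-fold in opposite directions, while Cdx2 was at 0.04 and 0.09 RPKM and Elf5 at 0 and 0.02 RPKM. The 5 measured of 6 mesoderm markers summed to 0.20 and 0.55 RPKM, all of them higher in G34R cells but under the filter. For 3 of the 5 the interval of counting error spanned 0, and for Mixl1 and Tbx6 it lay above 0. The 3 measured of 4 surface ectoderm markers summed to 0.17 and 0.19 RPKM.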

How the data were processed

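Total RNA from WT and G34R ES cells was sequenced as 1 library each. Stranded single-end reads of 50 bp had been mapped to mm9 by the authors with STAR 2.4.2a, and primary alignments were quantitated in Seqmonk, with isoforms merged, as the deposited RPKM per gene. RPKM is relative to the total of each library.

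Here genes were matched by symbol, and 26030 of 26127 probes had the span of a GENCODE M1 gene (mm9), whose merged exon length served for estimated reads. Depth was read from the spacing of low RPKM values (fewer than 6 reads) in genes of 1 exon shorter than 800 bp, and this step was tested on simulated data. The 2-fold threshold is one the study used, and the filter (at least 0.25 RPKM in 1 library) was set here. The members and gene lists were chosen with earlier results of these data known. Named genes were, per list, the 3 of highest mean RPKM and up to 4 of largest ratio past 2-fold with at least 1 RPKM. With 1 library per group no test was run. Other pseudocounts, filters, scalings and thresholds were tried. The software was pandas 2.3.3 and SciPy 1.17.1 with NumPy 2.4.6 under Python 3.11.15, and plots came from matplotlib 3.10.9. Some genes that the naming rule picked are not reported here.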

Additional observations from a re-analysis of the deposited data

How the results depend on the processing

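Each of the 10 genes kept the sign of its log2 ratio under all 6 alternatives of pseudocount and scaling. Vim ranged from -1.20 to -1.14, Krt8 from -0.94 to -0.81, Epcam from 0.77 to 0.85 and Krt19 from 0.63 to 0.87. Zeb1, and with it the mesenchymal median, was -0.29 as reported and -0.11 with a pseudocount of 1 RPKM. The ratio of Krt19 to Krt18 differed by 1.30 on the log2 scale with a pseudocount of 1 RPKM. Of the 10, only Epcam (1 alternative) and Krt19 (1 alternative) moved by more than their counting error. Rescaling shifted the median of all probes by less than 0.1 on the log2 scale.

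Over the 13366 probes past the filter the counts higher and lower, 774 and 1289, became 1780 and 2422 at 1.5-fold and 331 and 735 at 3-fold. They were 196 and 356 with a pseudocount of 1 RPKM and 612 and 1087 with 0.1 RPKM. Rescaling gave 850 and 1238 (equal median), 853 and 1237 (equal sum) and 869 and 1224 (equal sum without the 100 highest probes). With no filter the counts were 1445 and 2877 of 26127 probes. They were 439 and 689 of 10728 with at least 1 RPKM, and 181 and 239 of 5867 with at least 5 RPKM. The counts in the lists also depended on these choices. At 1.5-fold, 3 genes were higher (Krt19, Epcam and Cldn7) and 3 lower (Vim, Krt8 and Krt18), and at 3-fold 0 were lower. Other epithelial genes at 1.5-fold were 15 higher and 6 lower, and at 3-fold 0 and 0. Other mesenchymal genes at 1.5-fold were 4 higher and 10 lower. With a pseudocount of 1 RPKM, 1 other epithelial gene was higher and 0 lower, and 1 other mesenchymal gene was lower. With a pseudocount of 0.1 RPKM, 3 of 38 other epithelial genes were higher and 0 lower. The median log2 ratio or the RPKM sum (with or without the 100 highest probes) was also made equal. Under each of these rescalings 5 of the 38 were higher, Dsg2 among them, and 0 lower. With no filter, 4 of 42 other epithelial genes were lower and 3 of 34 other mesenchymal genes higher. With at least 1 RPKM, 3 of the 12 other mesenchymal genes kept were lower and the mesenchymal median was -1.20, since Vim alone was left. With at least 5 RPKM, 1 of the 20 other epithelial genes kept was higher and 0 lower. Only 3 other mesenchymal genes were kept at this level, and 0 of them were lower. The medians were then 0.36 (epithelial) and -1.20 (mesenchymal). No paired analysis was possible because each cell line had 1 library, and for the same reason no replicate could be left out. Depth limits the genes with few reads, such as Acta2 and Krt13.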

Other observations

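Among 12 other intermediate filament genes, 11 passed the filter of 0.25 RPKM, 3 (27.3%, beside 9.64% of all probes) were more than 2-fold lower in G34R cells and none (beside 5.79%) was more than 2-fold higher. Nefh, the heavy neurofilament gene, had 14.42 RPKM in WT and 4.80 RPKM in G34R cells, with a log2 ratio of -1.59 (95% interval of counting error -1.67 to -1.50). Prph, the peripherin gene, had 4.58 and 2.15 RPKM (-1.09), and Nefm, named after its values were seen, had 0.39 and 0.13 RPKM (-1.58) and passed the filter only through the WT library. Other filament genes of neural cells were within 2-fold: Ina had 9.89 and 5.18 RPKM (-0.93), Nefl 6.4 and 4.65 RPKM (-0.46) and Nes 1.36 and 1.56 RPKM (0.20). The nuclear lamins were the most abundant of the list. Lmnb1 had 62.27 and 76.24 RPKM (0.29), Lmnb2 had 16.59 and 13.64 RPKM (-0.28), and Lmna, whose level is commonly low in ES cells, had 11.48 and 19.80 RPKM (0.79, 0.73 to 0.84). The cause of these differences was not tested.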
